A study of Caenorhabditis elegans with 12 samples.

Results

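GABA is the main inhibitory transmitter of Caenorhabditis elegans, and 10 genes of its synthesis, transport and reception are described here across 4 genotypes. They were named by their WormBase public names and found by WormBase gene identifier in a table of 46739 genes. All 10 were found, all 10 had reads in every library, and all 10 passed the filter on low counts that left 15764 genes for testing. The enzyme gene is unc-25, the carrier genes are snf-11, unc-47 and unc-46, the transcription factor gene is unc-30, and the receptor genes are unc-49, lgc-38, exp-1, gbb-1 and gbb-2.

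Messenger RNA was sequenced from whole worms, each library a pool of 100, grown at 20 °C and taken 24 h after the L4 larval stage, at an age the labels call day 2. The groups, each with 3 replicates that the design text calls biological, were N2 (the wild-type laboratory strain), daf-2 (mutant in the insulin/IGF-1 receptor gene), spr-4;spr-3 (mutant in a pair of zinc-finger genes related to the mammalian repressor REST, called spr worms below) and spr-4;spr-3;daf-2 (called triple-label worms). The labels give no allele and no other agent or transgene for any group. The study's title names lifespan, neural excitation and REST as its subject.

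In the worm, GABA is made from glutamate by the decarboxylase UNC-25, loaded into vesicles by the transporter UNC-47 with the help of UNC-46, and taken back up from the synapse by SNF-11. Motor neurons that release it relax the body wall muscle through the chloride channel UNC-49, whereas the cation channel EXP-1 lets GABA contract the enteric muscles during defecation. GBB-1 and GBB-2 form a slower, G protein-coupled GABA-B receptor. The homeodomain factor UNC-30 sets the GABA fate of the D-type motor neurons and is known to switch on unc-25 and unc-47.

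Library totals ran from 30837773 to 48894725 counts. spr-3 stood at 17.3 ± 1.06 CPM (counts scaled to effective library size) in N2, 9.22 ± 0.779 in spr worms and 16.4 ± 1.24 in triple-label worms (SD, n = 3), so triple-label worms did not show the lower spr-3 level of spr worms (log2 difference from daf-2 -0.10, edgeR adjusted p = 0.338). spr-4 stood at 76.1 ± 1.8 CPM in N2, 70.8 ± 3.1 in daf-2, 64.1 ± 1.4 in spr worms and 61.1 ± 3.2 in triple-label worms. It was lower in spr worms than in N2 (log2 difference -0.25, edgeR adjusted p = 0.000119). It was also lower in triple-label worms than in daf-2 (-0.21, edgeR adjusted p = 0.000565). A mutant transcript need not be less abundant, and counts over whole genes do not check an allele. Ribosomal RNA genes took 0.15% to 0.181% of the counts in the daf-2 libraries and 0.0348% to 0.046% in the others. The rRNA share moves with every comparison that uses the daf-2 libraries, and its part in the results was not tested. In whole worms, fewer cells of a type and less RNA per cell cannot be told apart.

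Triple-label worms held the highest summed level of the 10 genes and the daf-2 libraries the lowest. The sum was 43.9 to 46.7 CPM in N2, 41 to 42 CPM in daf-2, 48.9 to 51.5 CPM in spr worms and 53.9 to 57.1 CPM in triple-label worms. No pair of genotypes overlapped in this sum, which is carried largely by unc-25 and unc-49. Over the 5 pairwise comparisons, 7 of the 10 genes passed edgeR's test at least once and 3 (gbb-1, unc-30 and unc-47) never did, while 85.5% of all genes tested passed at least once. Of 50 such tests, 14 were called higher and 3 lower in the first-named genotype, beside 27.9% higher and 25.3% lower over all genes. Since the comparisons share libraries, these calls are not independent.

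**Figure D1:**
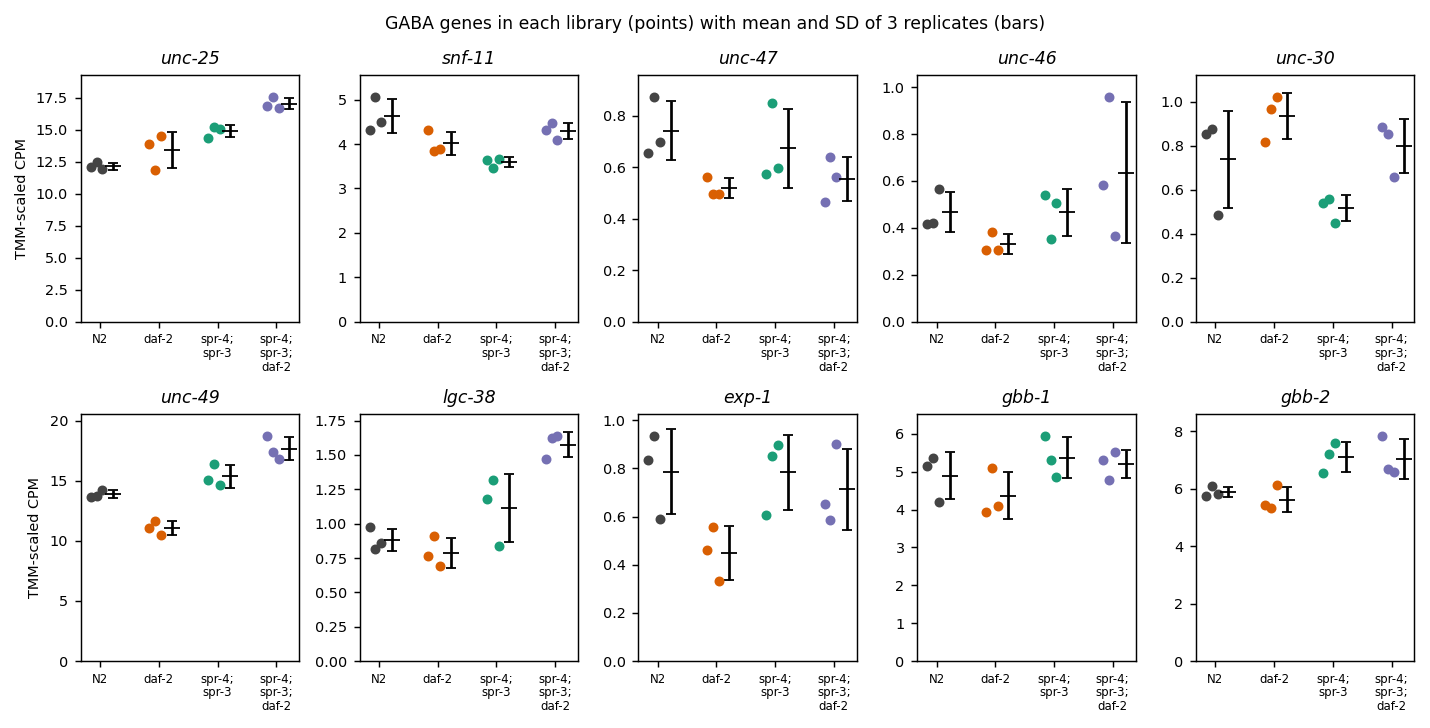
Level of each of the 10 GABA genes in every library, in CPM scaled by TMM (vertical axis, from 0, with its own scale in each panel), for the 4 genotypes along the horizontal axis. Points are single libraries and bars are the mean and SD of 3 replicates. The unc-49 points of the 4 genotypes do not overlap, and the 3 triple-label libraries lie above all others for unc-25 and lgc-38.

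Compared per kilobase of exon, the genes fell into a more abundant and a less abundant set. In N2 the order of these length-scaled levels was unc-25 (7.09 ± 0.164 CPM per kb), unc-49 (3.38 ± 0.0785), snf-11 (2.18 ± 0.181), gbb-2 (2.14 ± 0.0637), gbb-1 (1.47 ± 0.185), unc-30 (0.542 ± 0.161), lgc-38 (0.511 ± 0.0474), unc-47 (0.473 ± 0.0735), exp-1 (0.442 ± 0.0987) and unc-46 (0.393 ± 0.0707; SD, n = 3). The snf-11 and gbb-2 levels differed by less than their SDs, as did each neighbouring pair from unc-30 down to unc-46. The ratio of unc-25 to unc-47 CPM, not scaled for length, was 14.3 to 18.5 in N2 and 17.9 to 25.2 in spr worms. It was 23.8 to 29.3 in daf-2 and 27.5 to 36.2 in triple-label worms. Both groups with the daf-2 label lay above N2 and overlapped each other. The 5 low genes rested on few reads: 11 to 36 per library for unc-46, 17 to 33 for unc-47, 12 to 42 for exp-1, 15 to 43 for unc-30 and 25 to 67 for lgc-38. Counting error alone gives these genes a coefficient of variation of 15.6% to 23.7%, against 4.29% to 8.02% for the 5 abundant genes, so a small difference was not detectable in the former at this depth.

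**Figure D2:**
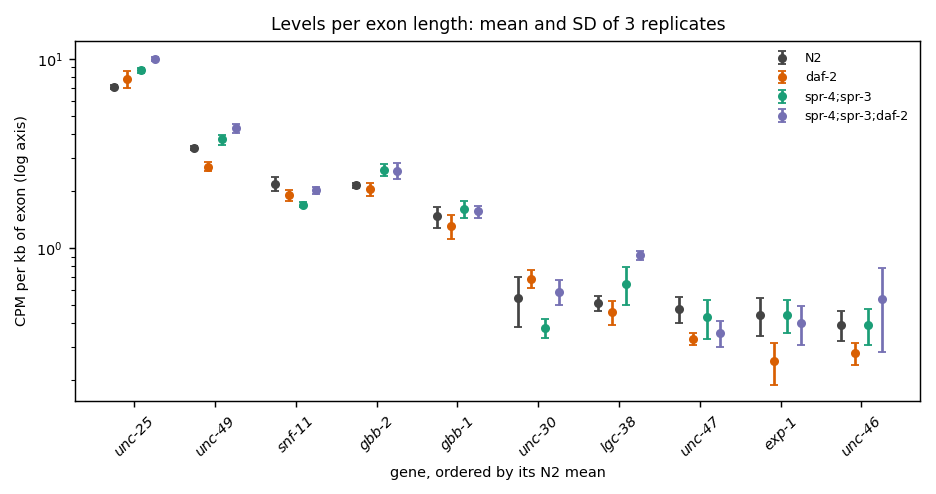
Mean level per kilobase of annotated exon (vertical axis, CPM per kb, logarithmic) of the 10 GABA genes, ordered by their N2 mean, with bars for the SD of 3 replicates and colours for the 4 genotypes. In N2 the levels run from 7.09 for unc-25 to 0.393 for unc-46, with a gap between gbb-1 (1.47) and unc-30 (0.542).

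Setting daf-2 against N2 asks what differs with the insulin receptor mutation alone. The muscle receptor gene unc-49 and the excitatory receptor gene exp-1 were lower in daf-2, by -0.33 ± 0.073 and -0.81 ± 0.28 on the log2 scale (estimate ± SE). These were 2 of the 10 genes, and 0 were higher. Among all genes tested 54.3% passed in this comparison (27.4% higher and 26.9% lower). Their median log2 difference was -0.19 and that of all genes was -0.0015. The libraries of the groups did not overlap for 5 of the 10 genes, against 59.3% of all genes.

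Setting spr worms against N2 asks about the spr mutations without the daf-2 mutation. The enzyme gene unc-25 (0.29 ± 0.076) and the GABA-B gene gbb-2 (0.28 ± 0.1) were higher in spr worms, and the reuptake gene snf-11 was lower (-0.36 ± 0.11). The count of 3 of 10 stands beside 46.5% of all genes called (24.6% higher, 21.9% lower). On total counts without TMM, 35% of all calls were higher, against 53% with it. The median was 0.07 for the GABA genes and 0.02 for all genes, and 4 of the 10 had groups that did not overlap, against 57.5% of all genes.

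Setting triple-label worms against daf-2 asks about the spr label among animals with the daf-2 mutation. It held the most GABA calls of the 5 pairwise comparisons. lgc-38 rose by 1.00 ± 0.2, unc-46 by 0.93 ± 0.34, unc-49 by 0.68 ± 0.072, unc-25 by 0.34 ± 0.074 and gbb-2 by 0.32 ± 0.099. That is 5 of 10 higher and 0 lower, with 47% of all genes called (26.1% higher, 20.9% lower). The median was 0.33 for the GABA genes against 0.02 for all genes, and 9 of the 10 estimates lay above 0, as did 52.3% of all genes. The groups did not overlap for 5 genes, against 52.7% of all genes.

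Triple-label worms were also set against spr worms, which asks for the daf-2 difference in animals with the spr label. lgc-38 (0.50 ± 0.19), unc-49 (0.20 ± 0.07) and unc-25 (0.20 ± 0.074) were higher. These 3 of 10 stand beside 49.3% of all genes called, 25.8% higher and 23.5% lower. On total counts 68.1% of all calls were higher, against 52.3% with TMM. The median was 0.20 for the GABA genes and 0.01 for all genes, and the groups of 5 genes did not overlap, against 58.9% of all genes. Since spr-3 levels differed between these groups (log2 difference 0.83, edgeR adjusted p = 6.94e-08), differences in daf-2 and in spr-3 level cannot be told apart here.

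Against N2, triple-label worms had higher levels of lgc-38 (0.82 ± 0.19), unc-25 (0.49 ± 0.074), unc-49 (0.35 ± 0.07) and gbb-2 (0.26 ± 0.097). The 4 of 10 stand beside 68.7% of all genes called (35.4% higher, 33.3% lower), and 5 genes had groups that did not overlap, against 73%. The interaction asks whether the daf-2 difference was the same with and without the spr label. It was called for unc-49 (0.53 ± 0.1, edgeR adjusted p = 0.000514) and snf-11 (0.45 ± 0.15, edgeR adjusted p = 0.0304), 2 of 10 beside 28.7% of all genes (14.1% higher, 14.6% lower). The snf-11 interaction passed in 9 of 19 alternatives, with adjusted p of 0.0073 to 0.0858, and was not called with DESeq2 (0.0698) or without a filter on low counts (0.0661). On total counts 77.5% of all interaction calls were higher, against 49.2% with TMM.

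**Figure D3:**
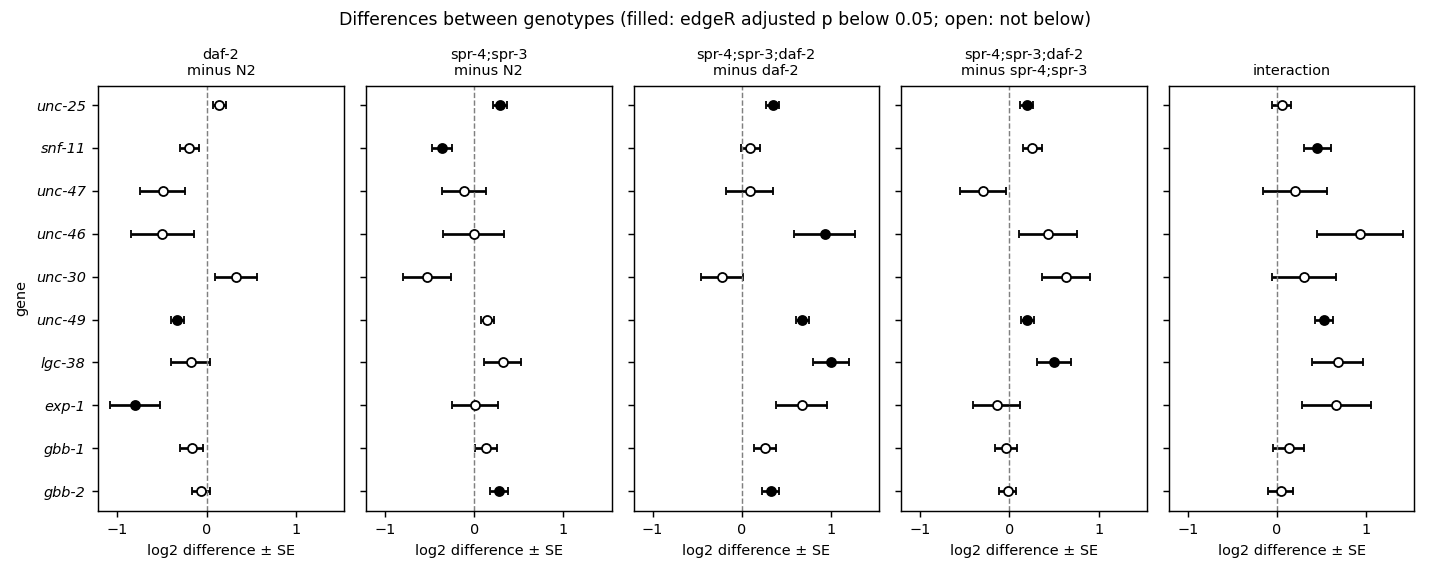
Log2 difference (horizontal axis, with its standard error) of each GABA gene (vertical axis) in 4 pairwise comparisons and the interaction, from edgeR over 15764 genes. Filled points passed at an adjusted p below 0.05. In the panel of triple-label worms against daf-2, 5 genes are filled and all 5 lie to the right of 0.

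unc-25 (WBGene00006762, III, 12942651 to 12949883 in WBcel235, forward strand) encodes glutamate decarboxylase, the enzyme that makes GABA. Its levels were 12.1, 12.5 and 11.9 CPM in N2 and 13.9, 11.8 and 14.6 CPM in daf-2 worms. They were 14.3, 15.2 and 15.1 CPM in spr worms and 16.8, 17.6 and 16.7 CPM in triple-label worms. Triple-label worms lay above all others, spr worms lay above N2, and daf-2 overlapped both of the latter groups. The rise passed in spr worms against N2 (edgeR adjusted p = 0.0034), in triple-label worms against daf-2 (edgeR adjusted p = 0.000712) and against N2 (edgeR adjusted p = 5.27e-06). Against spr worms (edgeR adjusted p = 0.032) it was 0.0923 without spr replicate 1, 0.0526 without its replicate 3, 0.101 without triple-label replicate 2, and 0.0631 with DESeq2. The difference between daf-2 and N2 was 0.14 (edgeR adjusted p = 0.115), and it was 0.25 without daf-2 replicate 2, the lowest of that group (edgeR adjusted p = 0.00845).

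snf-11 (WBGene00004910, V, 11305070 to 11308446, reverse strand) encodes the plasma membrane GABA transporter. It stood at 4.33, 5.06 and 4.49 CPM in N2, 4.32, 3.84 and 3.89 in daf-2 worms, 3.64, 3.46 and 3.67 in spr worms and 4.31, 4.47 and 4.1 in triple-label worms. Spr worms were below every other group, and triple-label worms overlapped both N2 and daf-2. The fall in spr worms passed (edgeR adjusted p = 0.0106), and without N2 replicate 2, the highest, it was -0.30 (edgeR adjusted p = 0.0526). The difference between triple-label worms and spr worms was 0.26 (edgeR adjusted p = 0.0578), and it passed on total counts (0.33, edgeR adjusted p = 0.0196), without N2 replicate 2 (0.0494) and without daf-2 replicate 1, 2 or 3 (0.0467, 0.0495 and 0.0483). The ratio of unc-25 to snf-11 CPM was 2.46 to 2.79 in N2, 3.08 to 3.74 in daf-2, 3.94 to 4.39 in spr worms and 3.91 to 4.08 in triple-label worms. Against N2, unc-25 was called higher and snf-11 lower in spr worms. In triple-label worms unc-25 was called higher and snf-11 was not called (-0.10, edgeR adjusted p = 0.396).

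unc-47 (WBGene00006783, III, 10183762 to 10186260, reverse strand) encodes the vesicular GABA transporter. Its levels were 0.655, 0.873 and 0.7 CPM in N2, 0.563, 0.498 and 0.497 in daf-2 worms, 0.573, 0.85 and 0.597 in spr worms and 0.466, 0.639 and 0.562 in triple-label worms. Both groups with the daf-2 label lay below N2 in all their libraries, by -0.49 ± 0.25 in daf-2 and -0.41 ± 0.24 in triple-label worms, but neither difference passed (edgeR adjusted p = 0.104 and 0.143). No pairwise difference called for unc-25 was called for unc-47, but its counts of 17 to 33 per library gave SEs of 0.24 to 0.26. A difference of the size seen for unc-25 could be missed at that precision, and the genes were not tested against each other.

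unc-46 (WBGene00006782, V, 5097075 to 5099025, reverse strand) encodes a membrane protein related to LAMP that brings UNC-47 to synaptic vesicles. Its levels were 0.417, 0.422 and 0.565 CPM in N2, 0.307, 0.381 and 0.304 in daf-2 worms, 0.54, 0.352 and 0.508 in spr worms and 0.583, 0.958 and 0.366 in triple-label worms. Triple-label worms ranged more widely than any other group and overlapped all of them. The rise against daf-2 (edgeR adjusted p = 0.0293) rested on single libraries. It was 0.53 without triple-label replicate 2 (edgeR adjusted p = 0.224), and its adjusted p was 0.0781 without daf-2 replicate 1, 0.0796 without daf-2 replicate 3, 0.0706 with DESeq2 and 0.063 with limma-voom. Without triple-label replicate 3 the difference from N2, 0.43 in all libraries (edgeR adjusted p = 0.222), was 0.71 (0.044).

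unc-30 (WBGene00006766, IV, 13118977 to 13124406, forward strand), the gene of the homeodomain factor, had 0.854, 0.873 and 0.484 CPM in N2, 0.818, 0.966 and 1.02 in daf-2 worms, 0.54, 0.557 and 0.448 in spr worms and 0.885, 0.852 and 0.659 in triple-label worms. The spr libraries lay below those of both groups with the daf-2 label and overlapped N2 through N2 replicate 3. Against N2 the difference was -0.53 ± 0.27 (edgeR adjusted p = 0.118), and without N2 replicate 3 it was -0.75 (0.0252). Against spr worms, triple-label worms differed by 0.63 (edgeR adjusted p = 0.0549). The adjusted p of this difference was 0.0462 in a fit of only those groups, 0.0382 on total counts, 0.0332 without N2 replicate 3 and 0.0386 without triple-label replicate 3. In the comparisons where unc-25 was called higher, the unc-30 estimate had either sign. It was -0.53 in spr worms against N2, and in triple-label worms -0.22 against daf-2, 0.63 against spr worms and 0.11 against N2. None of these passed in the main analysis, and a relation between the genes was not tested.

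unc-49 (WBGene00006784, III, 10520762 to 10532705, forward strand) encodes subunits of the GABA-gated chloride channel of body wall muscle, and the annotation gives 14 transcripts for it. Its levels were 13.7, 13.8 and 14.3 CPM in N2, 11.1, 11.6 and 10.5 in daf-2 worms, 15, 16.4 and 14.7 in spr worms and 18.7, 17.4 and 16.9 in triple-label worms. The order was daf-2, N2, spr and triple-label, with no overlap between neighbours. The fall in daf-2 (edgeR adjusted p = 0.000574) and the rise in triple-label worms over daf-2 (edgeR adjusted p = 1.81e-07) and over N2 (edgeR adjusted p = 0.000152) passed in all 20 alternatives. The difference between spr worms and N2 was 0.15 ± 0.072 (edgeR adjusted p = 0.0968). Against spr worms, triple-label worms were higher (edgeR adjusted p = 0.0224), with 0.0589 without spr replicate 1, 0.0871 without its replicate 3 and 0.0839 without triple-label replicate 1. The daf-2 difference thus had one sign without the spr label and the other with it, and the interaction itself passed in all 19 alternatives, with adjusted p of 5.78e-05 to 0.00273. Which of the 14 transcripts carried these reads is not resolved by counts per gene.

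lgc-38 (WBGene00017389, III, 7009136 to 7019584, forward strand) encodes a ligand-gated chloride channel subunit of the GABA-A type. Its levels were 0.973, 0.813 and 0.861 CPM in N2, 0.767, 0.907 and 0.69 in daf-2 worms, 1.18, 1.32 and 0.836 in spr worms and 1.47, 1.62 and 1.64 in triple-label worms. Triple-label worms stood apart at the top, and the other groups overlapped one another. The ratio of the highest to the lowest genotype mean was 2, the widest of the 10 genes. The rise against daf-2 (edgeR adjusted p = 0.000341) and against N2 (edgeR adjusted p = 0.000653) passed in all 20 alternatives. Against spr worms (edgeR adjusted p = 0.0333) it did not pass without spr replicate 3 (0.34, edgeR adjusted p = 0.184), without triple-label replicate 2 (0.0751) or 3 (0.0821), with DESeq2 (0.11) or without a filter on low counts (0.0552).

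exp-1 (WBGene00001373, II, 6157144 to 6161094, reverse strand) encodes the GABA-gated cation channel of the enteric muscles. Its levels were 0.834, 0.934 and 0.592 CPM in N2, 0.46, 0.556 and 0.331 in daf-2 worms, 0.607, 0.85 and 0.896 in spr worms and 0.652, 0.586 and 0.904 in triple-label worms. The daf-2 libraries lay below all others, and the remaining groups overlapped. The fall against N2 (edgeR adjusted p = 0.019) was no longer called without N2 replicate 1 (0.0651), N2 replicate 2 (0.0788) or daf-2 replicate 3 (0.0959). The difference of triple-label worms from daf-2 was 0.67 ± 0.29 (edgeR adjusted p = 0.0573), and it was 0.83 without daf-2 replicate 2 (0.0469) and 0.79 without triple-label replicate 2 (0.0436).

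gbb-1 (WBGene00021528, X, 2957935 to 2968192, forward strand) and gbb-2 (WBGene00022675, IV, 4488929 to 4506748, reverse strand) encode the GABA-B receptor subunits. gbb-2 had 5.76, 6.08 and 5.81 CPM in N2, 5.42, 5.33 and 6.13 in daf-2 worms, 6.54, 7.21 and 7.59 in spr worms and 7.83, 6.68 and 6.57 in triple-label worms. Both groups with the spr label lay above both groups without it. gbb-1 had 5.14, 5.36 and 4.2 CPM in N2, 3.94, 5.09 and 4.09 in daf-2 worms, 5.94, 5.31 and 4.87 in spr worms and 5.31, 4.79 and 5.52 in triple-label worms. All groups of gbb-1 overlapped, and its difference between triple-label worms and daf-2 was 0.26 ± 0.12 (edgeR adjusted p = 0.0884), or 0.37 without daf-2 replicate 2 (0.0293). The ratio of gbb-2 to gbb-1 CPM was 1.12 to 1.38 in N2 and 1.19 to 1.47 in triple-label worms. That the partner genes differ in their response was not tested.

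The gbb-2 calls were near the threshold. The rise in spr worms (edgeR adjusted p = 0.0269) was lost without N2 replicate 1 (0.0861) or 3 (0.0664), without spr replicate 2 (0.0685) or 3 (0.108), on total counts (0.142), with DESeq2 (0.0623) and without a filter (0.0513). The rise against daf-2 (edgeR adjusted p = 0.0111) was lost without daf-2 replicate 2 (0.053) or triple-label replicate 1 (0.0924). The rise against N2 (edgeR adjusted p = 0.0226) was lost without N2 replicate 1 (0.0734), without triple-label replicate 1 (0.137) and with DESeq2 (0.0745).

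Exons of 5 of the 10 genes overlap those of another gene, and whether the counting used strand is not given in the sources used here. gbb-2 shares 72 bases with trx-3 and 213 bases with ZK180.7, both on the opposite strand, and trx-3 stood at 1.39 ± 0.123 CPM in N2, 0.61 ± 0.125 in daf-2, 0.869 ± 0.138 in spr worms and 2.15 ± 0.809 in triple-label worms (SD, n = 3). exp-1 shares 41 bases with abts-3, unc-46 shares 51 bases with C04F5.2, and lgc-38 shares 2 bases with the abundant collagen gene col-8. unc-49 holds the noncoding RNA gene T21C12.12 in an exon on its own strand, over 84 bases, and that gene was higher in triple-label worms than in daf-2 by 1.22 (edgeR adjusted p = 0.000615). Reads of such overlaps cannot be assigned to one gene with certainty. The exons of unc-25, snf-11, unc-47, unc-30 and gbb-1 overlap no other gene in this annotation.

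Other genes of GABA signalling were taken from a list of 5, of which 4 were tested. lgc-36, a receptor-like gene with 1 to 8 reads per library, was not tested. lgc-35, which encodes another excitatory GABA receptor, stood at 0.966 ± 0.15 CPM in N2, 0.663 ± 0.136 in daf-2, 0.631 ± 0.0757 in spr worms and 0.977 ± 0.122 in triple-label worms (SD, n = 3). Its level fell in spr worms (-0.60, edgeR adjusted p = 0.0415) and higher in triple-label worms than in daf-2 (0.56, 0.0455) and than in spr worms (0.63, 0.0295), and its interaction passed (1.16, 0.0104). gta-1, the gene of the GABA-degrading transaminase, was more abundant per length, at 143 ± 1.7 CPM per kb in N2. Its CPM was 224 ± 2.67 in N2 and 244 ± 9.95 in triple-label worms, a rise of 0.12 (edgeR adjusted p = 0.0119). gab-1 and lgc-37 passed in no comparison. Over the list, edgeR called 0 of 4 in daf-2 against N2, where lgc-35 alone had an unadjusted p under 0.05 (0.0294), and 1 of 4 in each other comparison. Of all genes, 54.3% were called in daf-2 against N2, 46.5% in spr worms against N2 and 28.7% in the interaction. The shares for triple-label worms were 47% against daf-2, 49.3% against spr worms and 68.7% against N2. With DESeq2, 0 of 4 were called in any of the 5 pairwise comparisons.

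A list of 10 genes drawn up for GABA neuron identity was set beside these values, since fewer such neurons and less RNA per neuron would look alike. Whether these genes are confined to GABA neurons cannot be read from whole worms, so their levels do not count such neurons. Of the 10, 4 were higher and 1 lower in daf-2 than in N2, 1 was higher in spr worms, and 2 were higher in triple-label worms than in daf-2. The shares of all genes called in these comparisons were 54.3%, 46.5% and 47%. ttr-39, a transthyretin-related gene of the D-type neurons, went from 2.58 ± 0.196 CPM in N2 to 3.92 ± 0.806 in daf-2 and 5.17 ± 1.04 in triple-label worms, and it rose by 1.00 between the first and the last (edgeR adjusted p = 6.7e-06). The neuropeptide genes flp-11 and flp-13 rose by 0.81 and 0.54 in the same comparison, and lim-6, a homeobox gene of GABA neurons, by 0.59. These 4 of 10 higher and 0 lower against N2 stand beside 35.4% higher and 33.3% lower over all genes. Of the 10 estimates there, 6 lay above 0, as did 51.5% of all genes. unc-8, a sodium channel gene, was lower in daf-2 (-0.70, edgeR adjusted p = 0.0462), and acr-12, alr-1, del-1, oig-1 and unc-55 passed in no comparison. With DESeq2, 2 of this list were called in daf-2 against N2 and 0 in triple-label worms against daf-2.

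Genes expressed across the nervous system also differed between the genotypes. The summed level of 16 neuron-wide genes was 480 to 490 CPM in N2, 533 to 566 in daf-2, 497 to 539 in spr worms and 614 to 633 in triple-label worms. Of the 16, 11 were higher and 1 lower in triple-label worms than in daf-2, with ric-19 (1.40), rgef-1 (0.71), rab-3 (0.67) and unc-31 (0.56) the largest, beside 26.1% higher and 20.9% lower over all genes. In daf-2 against N2, 6 were higher and 2 lower (27.4% and 26.9% over all genes). In spr worms against N2, 5 were higher and 4 lower (24.6% and 21.9%), and in triple-label against spr worms 11 were higher and 0 lower (25.8% and 23.5%). The higher sum in daf-2 than in N2 was carried by few genes, with mean levels of 148 and 180 CPM for the synaptobrevin gene snb-1, 53.9 and 77.8 CPM for egl-3 and 52.1 and 66.8 CPM for egl-21 in N2 and daf-2, whereas rab-3 (-0.85) and rgef-1 (-0.53) fell there. As a share of the neuron-wide sum, the 10 GABA genes made up 9.14% to 9.53% in N2, 7.25% to 7.79% in daf-2, 9.12% to 10% in spr worms and 8.51% to 9.29% in triple-label worms. The daf-2 libraries lay apart at the bottom, while the other groups overlapped. Per 1000 neuron-wide CPM, unc-25 was at 25.1 ± 0.348 in N2, 28.8 ± 0.813 in spr worms and 27.3 ± 0.882 in triple-label worms, so that triple-label worms were not the highest in this ratio. gbb-2 was at 12.1 ± 0.283 (11.9 to 12.4) in N2 and 11.3 ± 1.28 (10.4 to 12.7) in triple-label worms. These groups thus overlapped in this ratio, whereas in CPM triple-label worms lay above N2. unc-49 was at 28.6 ± 0.911 in N2, 20.1 ± 1 in daf-2, 29.8 ± 2.43 in spr worms and 28.4 ± 1.95 in triple-label worms (SD, n = 3). Triple-label worms (26.62 to 30.46) thus overlapped spr worms (27.21 to 32.01) in this ratio, with a lower mean, whereas in CPM they lay above them. The part of a neuron-wide difference in the GABA values was not tested.

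The genes for acetylcholine use, the excitatory partner at the same muscles, had summed levels of 16.4 to 16.5 CPM in N2, 12.5 to 13.6 in daf-2, 13.6 to 15.2 in spr worms and 13.7 to 17.3 in triple-label worms. Of 6, 2 were lower in daf-2, 1 was lower in spr worms, and 1 was higher in triple-label worms than in daf-2, beside 54.3%, 46.5% and 47% of all genes called. With DESeq2 1 was called in daf-2. Body wall muscle, which carries UNC-49, had a summed level over 10 genes of 3625 to 3840 CPM in N2, 2931 to 3564 in daf-2, 3843 to 4010 in spr worms and 3369 to 3929 in triple-label worms. In daf-2, 5 of the 10 muscle genes were lower than in N2, among them unc-22 (-0.63), mup-2 (-0.56) and unc-89 (-0.40), and 1 was higher, the muscle transcription factor gene hlh-1 (0.58), beside 54.3% of all genes called. Per 1000 CPM of the muscle genes, unc-49 was at 3.65 to 3.8 in N2, 3.1 to 3.57 in daf-2, 3.78 to 4.09 in spr worms and 4.76 to 5.17 in triple-label worms. As in CPM, triple-label worms stood above the rest and daf-2 below N2 in this ratio.

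**Figure D4:**
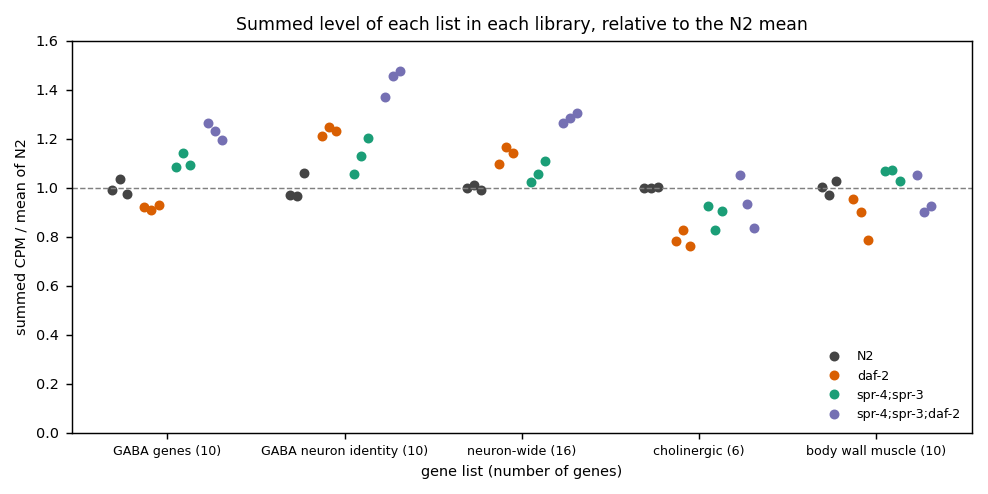
Summed level of each gene list in every library, divided by the mean of the N2 libraries (vertical axis, from 0), for the GABA genes and 4 lists of neuron and muscle genes (horizontal axis). Points are single libraries, colours are genotypes and the dashed line marks the N2 mean. The daf-2 libraries lie below N2 for the GABA genes (41 to 42 against 43.9 to 46.7 CPM) and above N2 for the neuron-wide genes (533 to 566 against 480 to 490 CPM).

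Calls among markers of other tissues are given beside the shares of all genes called. Those were 26.1% higher and 20.9% lower in triple-label worms against daf-2, and 27.4% and 26.9% in daf-2 against N2. They were 24.6% and 21.9% in spr worms against N2, and 25.8% and 23.5% in triple-label against spr worms. In triple-label worms against N2 they were 35.4% and 33.3%. In triple-label worms against daf-2, 2 of 7 intestine genes were higher and 2 lower, 2 of 6 pharynx genes were higher and 0 lower, 0 of 6 hypodermis genes were higher and 1 lower, 0 of 8 germline and oocyte genes were higher and 5 lower, and 5 of 5 sperm genes were higher. The germline and oocyte sum was 4287 to 4460 CPM in daf-2 and 3559 to 3872 in triple-label worms. In daf-2 against N2, 4 of 7 intestine genes were lower and 2 higher, 5 of 6 pharynx genes were lower and 1 higher, 3 of 6 hypodermis genes were lower, among them the cuticle collagen genes rol-6 (-6.36) and dpy-7 (-2.40), 6 of 8 germline and oocyte genes were lower, and 2 of 5 sperm genes were lower (msp-10 by -6.29 and msp-3 by -5.53) and 1 higher. In spr worms against N2, 3 intestine genes were lower and 1 higher, 4 pharynx genes lower, 2 hypodermis genes lower and 1 higher, 4 germline and oocyte genes lower, and 2 sperm genes lower and 1 higher. In triple-label against spr worms, 8 of 8 germline and oocyte genes and 5 of 6 hypodermis genes were lower, 2 intestine genes were higher and 2 lower, 1 pharynx gene was higher and 1 lower, and 3 sperm genes were higher and 2 lower. Against N2, triple-label worms were lower in 8 of 8 germline and oocyte genes, 5 of 7 intestine, 5 of 6 pharynx, 3 of 6 hypodermis and 2 of 5 sperm genes, and higher in 2 intestine, 1 pharynx and 3 sperm genes. In every group all of these markers had reads, as whole animals would give, and their part in the GABA values was not tested.

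Among themselves, the GABA genes lay closest in the pair unc-25 and gbb-2. Each gene's log2 CPM was centred on its own mean over the 12 libraries, and the root-mean-square difference between genes was 0.133 for this pair, 0.168 for unc-49 and gbb-2 and 0.187 for gbb-1 and gbb-2. The least alike were unc-30 and exp-1, at 0.646. By the same measure against 6522 named genes, the pattern of unc-25 was nearest to lact-3 (0.0649) and pamn-1 (0.0651), and that of unc-49 to lec-3 (0.0916) and the kinesin gene unc-104 (0.104). That of lgc-38 was nearest to pqn-25 (0.131) and the kinesin gene klp-11 (0.167), and that of snf-11 to vps-34 (0.0908) and hxk-3 (0.0937). The gbb-1 pattern was nearest to aex-3 (0.0885) and ifta-1 (0.0988), and the gbb-2 pattern to atgp-2 (0.0745) and irx-1 (0.079). For the low genes the nearest were farther off: scav-6 (0.193) and drd-5 (0.203) for unc-30, ads-1 (0.164) and mrpl-45 (0.171) for unc-47, wrk-1 (0.214) and nlf-1 (0.216) for exp-1, and gpa-7 (0.276) and ttll-15 (0.278) for unc-46. A small difference in this measure can also come from genes that vary little. The root-mean-square spread about a gene's own mean was 0.193 for unc-25 and 0.172 for gbb-2. It was 0.366 for unc-30, 0.399 for exp-1 and 0.408 for unc-46.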

How the data were processed

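The authors deposited 1 table of raw read counts per gene, with no scaling. Per the submitters' processing notes, reads went through STAR and featureCounts 1.5.1 on WBcel235. No STAR version, strand setting or multi-mapping rule was found in the sources used here, although the labels' protocols name a stranded mRNA kit. All 12 columns matched samples by name. The series' design text calls the replicates biological, and the labels say no more of their origin. Gene names, coordinates and exon lengths came from a WBcel235 annotation, release 115. No sequence was used here.

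Genes passing filterByExpr (minimum count 10) were scaled by TMM and fitted in 1 edgeR 4.0.16 quasi-likelihood model (R 4.3.3, robust) of 12 libraries, with 8 residual degrees of freedom. Tests were two-sided, and Benjamini-Hochberg adjusted p-values under 0.05, over all 15764 genes, were called. SEs are the size of the log2 difference divided by the square root of F. CPM use TMM-scaled totals. The interaction is the daf-2 difference with the spr label minus that without it. Likeness used log2 CPM (prior count 2) and candidates with a gene name and a mean of at least 1, giving the 2 nearest to each member. The 10 members were always named, any tested gene of the other GABA and GABA neuron lists could be named, and of any other list at most the 4 largest calls. Genes sharing exon bases with a member, and snb-1, were named after their values were seen. The members and the 11 other lists were chosen with earlier results of these data known. One list gene, opt-2, had no identifier.

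In each pair of replicates the counts differed beyond sampling noise, with a chi-square of 3.61 or more for each degree of freedom. Other settings tried were size factors by RLE, totals alone, testing without a filter, a filter of 1 CPM in 6 libraries, DESeq2 1.42.0, limma 3.58.1 (voom), a block on replicate number, fits of the compared groups alone, and 12 fits that each omit a library. The model was tested on simulated counts. Figures were drawn with matplotlib 3.10.9.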

Additional observations from a re-analysis of the deposited data

Results flagged for a closer look

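unc-49 was singled out because its daf-2 difference changed with the spr label. The daf-2 libraries were lower than N2 by -0.33 ± 0.073 on the log2 scale, in 3 of 3 libraries, and triple-label worms were higher than spr worms by 0.20 ± 0.07, in 3 of 3 libraries. The difference between these was 0.53 (edgeR adjusted p = 0.000514). The rise over spr worms was not called without spr replicate 1 (edgeR adjusted p = 0.0589), spr replicate 3 (0.0871) or triple-label replicate 1 (0.0839). Per 1000 neuron-wide CPM it was not seen, with unc-49 at 29.8 ± 2.43 in spr worms and 28.4 ± 1.95 in triple-label worms. As stated above, spr-3 level also differed between triple-label and spr worms, and the rRNA share was higher in the daf-2 libraries. Their part in this interaction and in that of snf-11 was not tested.

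snf-11 was singled out on the same ground, with -0.20 ± 0.11 for daf-2 against N2, 0.26 ± 0.11 for triple-label worms against spr worms, and 0.45 for the difference (edgeR adjusted p = 0.0304). Neither single difference passed on its own (edgeR adjusted p = 0.127 and 0.0578). The interaction was not called without N2 replicate 2 (0.0858), daf-2 replicate 2 (0.0662) or 3 (0.0544), spr replicate 1 (0.0501), 2 (0.0775) or 3 (0.0503), or triple-label replicate 1 (0.0549) or 2 (0.063), with DESeq2 (0.0698) or without a filter on low counts (0.0661).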

How the results depend on the processing

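Of the 10 genes, the number called changed by over 1.5 times under few settings. For triple-label against spr worms it was 3 in the main analysis, 5 on total counts, 1 without a filter and 1 with DESeq2. For the interaction it was 2, and 1 without a filter or with DESeq2. For daf-2 against N2 it was 2, and 1 with at least 1 CPM in 6 libraries, which left 6 of the genes to test. When single libraries were left out it ran from 1 to 3 for daf-2 against N2, from 0 to 4 for triple-label against spr worms and from 1 to 2 for the interaction. The 0 arose without spr replicate 3. Over all single-gene differences, 422 of those from other settings kept their direction and side of the threshold, 12 lost a call, 5 gained one and 7 changed sign. With a library left out these counts were 661, 32, 12 and 15. Apart from the settings named here, the cause was not tested.

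Sign changes were among differences near 0. For exp-1 in spr worms against N2 the log2 difference was 0.0066, and it was -0.01121 with RLE, -0.08429 on total counts, -0.006884 without a filter, -0.01467 with DESeq2 and -0.1561 to 0.1506 without single libraries. For triple-label against spr worms on total counts, gbb-1 was at 0.03153 and gbb-2 at 0.05248. Without single libraries these ran from -0.0982 to 0.04587 and from -0.09101 to 0.03829. The corresponding ranges were -0.1147 to 0.172 for unc-46 in spr worms against N2, -0.02049 to 0.1937 for unc-47 in triple-label worms against daf-2, -0.1013 to 0.2483 for unc-30 in triple-label worms against N2, and, for the interaction, -0.03514 to 0.1099 for unc-25 and -0.04507 to 0.1068 for gbb-2. Total counts moved the median interaction of all genes to 0.128. Relative to it the interaction was 0.526 for unc-49, 0.448 for snf-11 and 0.676 for lgc-38, the last also called there (0.80, edgeR adjusted p = 0.0391).

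The deviations of same-numbered libraries of different genotypes had a median correlation of 0 over 18 pairs (-0.15 to 0.107). For differently numbered libraries it was -0.003 over 36 pairs (-0.122 to 0.1). This gave no sign of pairing by number, but so few replicates cannot show that the samples were unpaired. With the replicate block no call of a GABA gene changed, the numbers called stayed at 2, 3, 5, 3, 4 and 2, and exp-1 in spr worms against N2 was at -0.004773.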

Other observations

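Genes that organise GABA synapses on muscle were also read from a list of 7. nrx-1, the neurexin gene, stood at 4.78 ± 0.0778 CPM in N2, 3.9 ± 0.61 in daf-2, 8.09 ± 0.191 in spr worms and 9.72 ± 0.362 in triple-label worms (SD, n = 3). It rose by 0.76 in spr worms over N2 (edgeR adjusted p = 3.3e-06) and by 1.32 in triple-label worms over daf-2 (edgeR adjusted p = 1.42e-09). madd-4, the gene of the secreted synapse organiser punctin, rose by 0.46 and 0.63 in these comparisons. nlg-1, the neuroligin gene, was lower in daf-2 than in N2 (-0.40, edgeR adjusted p = 0.00798) and higher in triple-label worms than in daf-2 (0.65, edgeR adjusted p = 0.000179). Over the list, 6 of 7 were lower in daf-2 than in N2 and 0 higher, and 4 of 7 were higher and 1 lower in triple-label worms than in daf-2. Over all genes these shares were 26.9% lower and 27.4% higher in the former, and 26.1% higher and 20.9% lower in the latter. In spr worms against N2, 2 were higher and 2 lower (unc-40 by -0.32 and sax-7 by -0.14), beside 24.6% and 21.9% of all genes. The summed level of the list was highest in N2, at 435.8 to 444.5 CPM. It was 312.8 to 374.9 CPM in daf-2, 382.7 to 400.3 in spr worms and 342.2 to 358.4 in triple-label worms. This sum is carried largely by sax-7 and unc-40. Both nrx-1 (0.56, edgeR adjusted p = 0.00533) and nlg-1 (0.71, edgeR adjusted p = 0.00362) passed the interaction, as did frm-3, the gene of a FERM protein that anchors receptors (0.46, edgeR adjusted p = 0.0227). That is 3 of 7 higher and 0 lower, beside 28.7% of all genes called in the interaction (14.1% higher, 14.6% lower).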
